A study of Mus musculus with 6 samples.

Results

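The 52 genes described here encode the core proteins of proteoglycans and the enzymes that build and trim their glycosaminoglycan chains, together with the hyaluronan synthases and the hyaluronan receptor Cd44. They are 52 of the 43548 genes in an mRNA sequencing table of Met-1 TripZ-200c cells without and with doxycycline (Dox). The genes were selected because the process fell with Dox in this same comparison, so their directions and calls are a description of the chosen genes and not independent evidence of that fall. Met-1 is a mammary carcinoma line from a late tumor of the MMTV-PyMT mouse, which is on the FVB/NJ background. The TripZ-200c cells hold a lentiviral pTripZ-RFP vector with the precursor of the microRNA miR-200c, whose expression is induced by Dox, and they represent a single clone sorted for tight and intermediate induction. The 6 libraries were 3 from cells without Dox and 3 from cells given 1 µg/mL Dox, all at 48 h. That time is from the text of the paper, while a figure legend of the paper points to samples of a longer treatment. Every library came from the same vector-bearing clone, and cells with the empty vector and Dox were not analysed here, so an effect of Dox and an effect of miR-200c cannot be told apart.

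A proteoglycan is a core protein that carries long sulfated sugar chains. Chain synthesis in the Golgi starts with a short linker that begins with xylose on a serine of the core protein. The next sugar added decides whether the chain becomes heparan sulfate or chondroitin sulfate, and polymerases, epimerases and sulfotransferases then extend and pattern it. Syndecans and glypicans are the main heparan sulfate carriers on the cell surface, where their chains bind growth factors, chemokines and matrix proteins. Hyaluronan differs from the others in that it is made at the plasma membrane, is not sulfated and has no core protein. The microRNA miR-200c represses the mRNA of Zeb1 and Zeb2, which encode transcription factors that drive the mesenchymal state of carcinoma cells.

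The mature miR-200c sequence is shown because its seed defines the sites that were searched for in the members, and the sequences of miR-200b and miR-429 are shown because they share that seed. Sequences are from RefSeq for GRCm38.p6, written 5′ to 3′, with the seed at bases 2 to 8 in capitals. The miR-200c sequence lies at chr6:124718324-124718346 on the minus strand.
mmu-miR-200c-3p: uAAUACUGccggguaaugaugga
mmu-miR-200b-3p: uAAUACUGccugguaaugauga
mmu-miR-429-3p: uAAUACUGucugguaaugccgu
A match to this seed in an mRNA reads CAGTATT in DNA letters. It was searched for on the transcribed strand of the longest 3′ UTR that the GENCODE annotation of GRCm38 gives for each gene. Of the 10809 genes tested that had an annotated 3′ UTR, 16.9% held at least 1 match. Of the 37 members tested, 7 held a match (18.9%), and the density of matches was 0.107 per kb of 3′ UTR in the members against 0.113 per kb in all genes tested. The share and the density in the members were close to those of all genes, and no test was made of them. For comparison, the 3′ UTR of Zeb1 held 5 matches in 2401 bases and that of Zeb2 held 5 in 4941 bases.

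Among the 11 members called lower with Dox, 3 held a match, and the other 8 held none. Of the 3 members called higher, 1 held a match, as did 3 of the 23 members that were tested and not called. The sites of the called members are printed as windows of 30 bases on the strand of the mRNA, with the match in capitals, so that they can be set beside the levels of those genes. They are from Chsy1 at chr7:66173164-66173193 and chr7:66173761-66173790 on the plus strand, Csgalnact1 at chr8:68357974-68358003 on the minus strand, Sdc2 at chr15:33033276-33033305 on the plus strand and Hs3st1 at chr5:39614213-39614242 on the minus strand.
Chsy1, site 1: tttagagggtgCAGTATTattaagggggac
Chsy1, site 2: aaaccagtggaCAGTATTtttctattgtac
Csgalnact1: tgtaatttcccCAGTATTaaccaaaaaaac
Sdc2: aaagatgctaaCAGTATTttgagaagttgc
Hs3st1: tgacttctgtaCAGTATTagattcacagtt
In site 1 of Chsy1, in Csgalnact1 and in Hs3st1 the match was followed by an A, and in site 2 of Chsy1 and in Sdc2 by a T. Matches were also found in the tested members that were not called Extl3, Hs2st1 and Has2, here named after their values were seen. A match of letters is a description and does not show that the microRNA acts there.

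Expression is given as FPKM, a measure of the fragments on a gene that is scaled for transcript length and for sequencing depth, so levels of different genes can be compared per length. A gene was tested where its mean over the 6 libraries was at least 1 FPKM, and it was called where the limma adjusted p on log2(FPKM + 0.1) was under 0.05 over all 12879 genes tested. Log2 fold changes are with Dox over without Dox, with their standard error (SE), and the added 0.1 makes fold changes of genes near the filter too small. FPKM does not tell how many reads a value rests on, so the depth behind each value is unknown. Zeb1, a target of miR-200c that checks the labels, was at 41.01, 42.1 and 42.3 FPKM without Dox, against 19.8, 20.3 and 23.6 FPKM with Dox. The epithelial markers Krt18 and Epcam were called higher with Dox. The summed level of the 5 epithelial markers was 91.6 to 96.96 FPKM without and 369 to 406 FPKM with Dox. Nearly all of that sum was Krt18, at 91.2 to 96.4 FPKM without and 364 to 400.0 FPKM with Dox. Krt8 and Cdh1 were higher with Dox without overlap but did not pass the filter, and Krt19 was listed at 0 in every library. Of the mesenchymal markers, Vim, Zeb1 and Zeb2 were called lower and Cdh2 was not called (log2 fold change -0.06). The summed leukocyte markers did not pass 0.326 FPKM in any library, with Cd3e and Emr1 listed at 0. Of 4 fibroblast markers only Pdgfra passed the filter and was called lower. The list summed to 19.04 to 19.3 FPKM without and 15.2 to 17.03 FPKM with Dox, nearly all of it Pdgfra. Below the filter, Col1a2 went the other way without overlap, from 0.0300 to 0.244 FPKM without to 0.318 to 0.609 FPKM with Dox. Col1a1 and Thy1 had overlapping groups. Of 3 adipocyte markers Adipoq and Plin1 were listed at 0 and Fabp4 was called lower, while the 3 endothelial markers summed to 4.47 to 5.12 FPKM without and 4.19 to 4.55 FPKM with Dox. The part of these shifts in the values of the members was not tested, and in bulk RNA fewer cells of a type and less RNA per cell cannot be told apart.

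Of the 52 members, 37 passed the filter on low values and 15 did not. Among the 37, 11 were called lower and 3 higher with Dox, and 23 were not called. Over all genes tested, 7.97% were called lower and 7.06% higher. In 18 of the 37 tested members every library with Dox was below every library without Dox, and in 4 every library with Dox was above. Of all genes tested with 6 values, 17.6% and 17.4% did so. The members were chosen with this comparison in view, so nothing is read from the size of these counts. The members' log2 fold changes ran from -0.70 to 0.70 with a median of -0.11, beside a median of 0.00 over all genes tested, and 30 of the 37 were below 0 against 49.2% of all genes. Changes were small, and only Sdc3, Chsy1 and Hs3st1 among the called members changed by 1.5-fold or more. Summed over all members, the level was 2380.5 to 2446 FPKM without Dox and 2201 to 2221 FPKM with Dox, so the groups did not overlap.

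**Figure D1:**
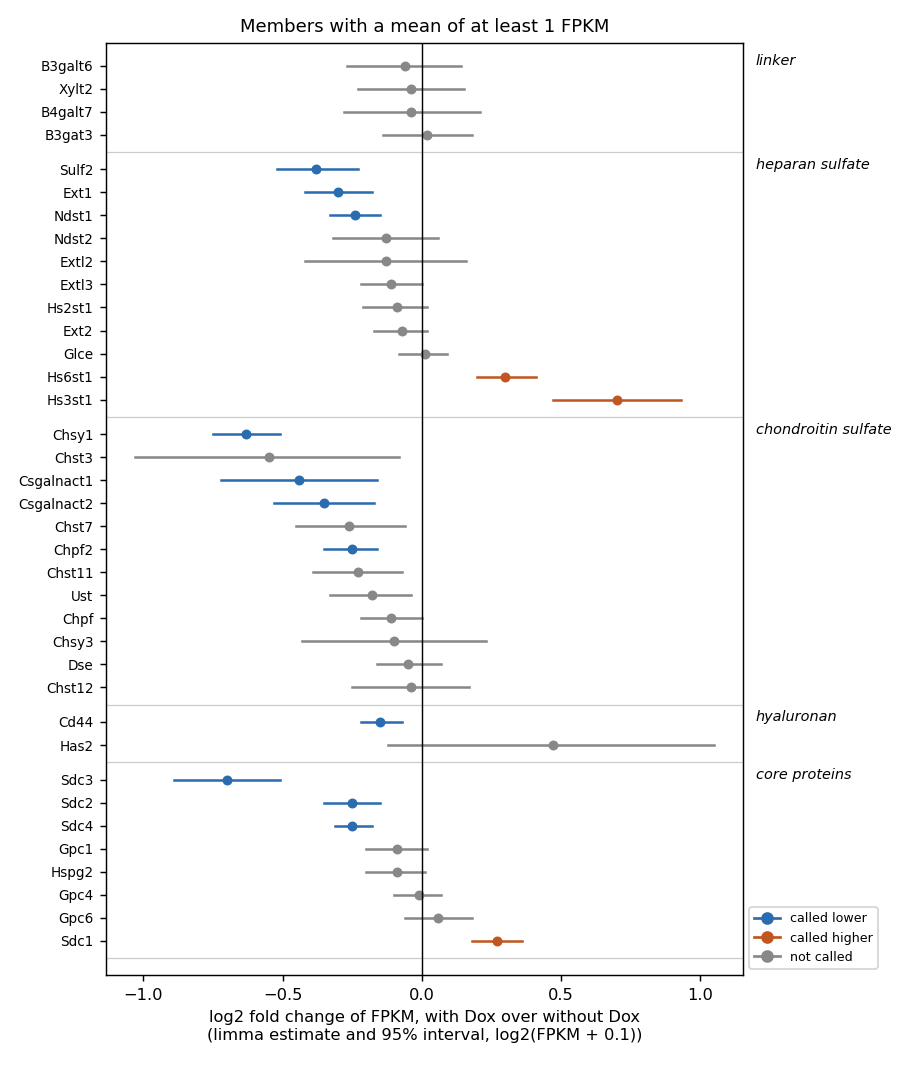
Log2 fold change of FPKM with Dox over without Dox (horizontal axis) for the 37 tested members (vertical axis), grouped by role; points are limma estimates, lines are 95% intervals, and colour marks the call. The 11 members called lower lie in the heparan sulfate, chondroitin sulfate, hyaluronan and core protein groups, and the 3 called higher are Hs3st1, Hs6st1 and Sdc1.

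The linker enzymes, which are shared by heparan sulfate and chondroitin sulfate, had no called member among the 4 tested. Of all genes tested, 7.97% were called lower and 7.06% higher, so nothing is read from a count of 0 in 4 genes. B3gat3, the glucuronyltransferase that completes the linker, was at 32.8, 36.02 and 30.6 FPKM without Dox, against 33.4, 33.1 and 34.2 FPKM with Dox. The values with Dox lay inside the range of those without, and the log2 fold change was 0.02 with a 95% interval from -0.14 to 0.18. Xylt2, which adds the xylose, and the galactosyltransferases B4galt7 and B3galt6 were lower in level, between 12.8 and 16.04 FPKM over all libraries, with log2 fold changes of -0.04, -0.04 and -0.06 and overlapping groups. Xylt1, the other xylosyltransferase, was listed at 0 in all 6 libraries. The 5 linker genes summed to 73.5 to 81.8 FPKM without Dox and 74.2 to 77.5 FPKM with Dox.

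Among the heparan sulfate enzymes 3 of 11 tested members were called lower and 2 higher, beside 7.97% and 7.06% of all genes tested. The other 6 were not called. Those called lower were the polymerase subunit Ext1, the sulfotransferase Ndst1 and the extracellular sulfatase Sulf2, and those called higher were the sulfotransferases Hs6st1 and Hs3st1. The group's median log2 fold change was -0.11, and its summed level was 594 to 610.0 FPKM without and 548 to 574 FPKM with Dox.

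The chain is polymerised by a complex of Ext1 and Ext2, which adds glucuronic acid and N-acetylglucosamine in turn. Ext1 (chromosome 15, 53064038 to 53346159, minus strand) was at 109.9, 119 and 109 FPKM without Dox, against 96.3, 89.3 and 88.1 FPKM with Dox. All values with Dox were below all values without, and the log2 fold change was -0.30 (SE 0.052). Ext2 was at 149, 138 and 139.8 FPKM without Dox, against 139, 132 and 134 FPKM with Dox. Its groups overlapped, and its log2 fold change of -0.07 had a 95% interval from -0.17 to 0.02. The ratio of Ext1 to Ext2 was 0.792 ± 0.0622 (SD, n = 3) without Dox, against 0.675 ± 0.016 (SD, n = 3) with Dox. Among the related genes, Extl3, which starts heparan sulfate on the linker, was at 33.7, 32.6 and 34.1 FPKM without Dox, against 31.6, 31.4 and 30.1 FPKM with Dox. The Extl3 groups did not overlap, but the gene was not called, with a log2 fold change of -0.11 and a 95% interval from -0.22 to 0.00. Extl2 was at 20.1, 21.8 and 21.02 FPKM without Dox, against 22.8, 19.3 and 16.1 FPKM with Dox, a wide spread with Dox that covered the values without it. Extl1 did not pass the filter and lay between 0.638 and 1.31 FPKM.

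Sulfation begins with the N-deacetylase and N-sulfotransferase enzymes, whose product is the substrate of later steps. Ndst1 (chromosome 18, 60684494 to 60748650, minus strand) was at 68.7, 67.3 and 69.5 FPKM without Dox, against 58.4, 59.3 and 56.3 FPKM with Dox. The groups were well apart relative to their spread, and the log2 fold change was -0.24 (SE 0.0398). Its relative Ndst2 was expressed at a lower level, between 12.3 and 14.9 FPKM, with overlapping groups and a log2 fold change of -0.13. Glce, the epimerase that turns glucuronic into iduronic acid, was at 59.99, 59.05 and 61.03 FPKM without Dox, against 59.999, 60.9 and 59.9 FPKM with Dox. The 6 values of Glce lay between 59.05 and 61.03 FPKM, and its log2 fold change was 0.01 with a 95% interval from -0.08 to 0.09. Hs2st1, the sulfotransferase for the uronic acid, was at 59.2, 54.8 and 58.2 FPKM without Dox, against 51.6, 54.9 and 54.6 FPKM with Dox. Its groups overlapped at 54.8 and 54.9 FPKM, and it was not called (log2 fold change -0.09, 95% interval from -0.21 to 0.02).

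The glucosamine residues are sulfated at other positions by the Hs6st and Hs3st enzymes, and the Hs3st step completes the motif through which heparan sulfate binds antithrombin. Hs6st1 (chromosome 1, 36068400 to 36106446, plus strand) was at 35.5, 34.2 and 34.8 FPKM without Dox, against 42.1, 42.7 and 44.1 FPKM with Dox. Every library with Dox was above every library without, and the log2 fold change was 0.30 (SE 0.044). An antisense gene, Gm37335, overlaps 8.07% of the exon bases of Hs6st1, and the libraries were made with a stranded kit, but whether strand was used in the counting is not given in the sources used here. Hs3st1 (chromosome 5, 39613935 to 39755475, minus strand) was at 14.3, 14.9 and 13.5 FPKM without Dox, against 26.4, 22.8 and 20.7 FPKM with Dox. It had the highest log2 fold change of the members, 0.70 (SE 0.0974), and its 3′ UTR held a seed match, in the window printed above. Of the relatives of these enzymes, Hs6st2 was listed at 0 in every library and Hs3st3b1 lay between 0.203 and 0.427 FPKM.

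The extracellular sulfatases remove sulfate from the same glucosamine position that Hs6st1 modifies, after the chain has reached the cell surface. Sulf2 (chromosome 2, 166073089 to 166155663, minus strand) was at 42.9, 42.4 and 39.1 FPKM without Dox, against 31.3, 33.9 and 30.6 FPKM with Dox. The groups did not overlap, and the log2 fold change was -0.38 (SE 0.0614). The related Sulf1 was at or below 0.135 FPKM. Since Hs6st1 and Sulf2 changed in opposite directions, the ratio of Hs6st1 to Sulf2 mRNA went from 0.827, 0.806 and 0.888 without Dox to 1.35, 1.26 and 1.44 with Dox. Chain sulfation itself was not measured.

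**Figure D2:**
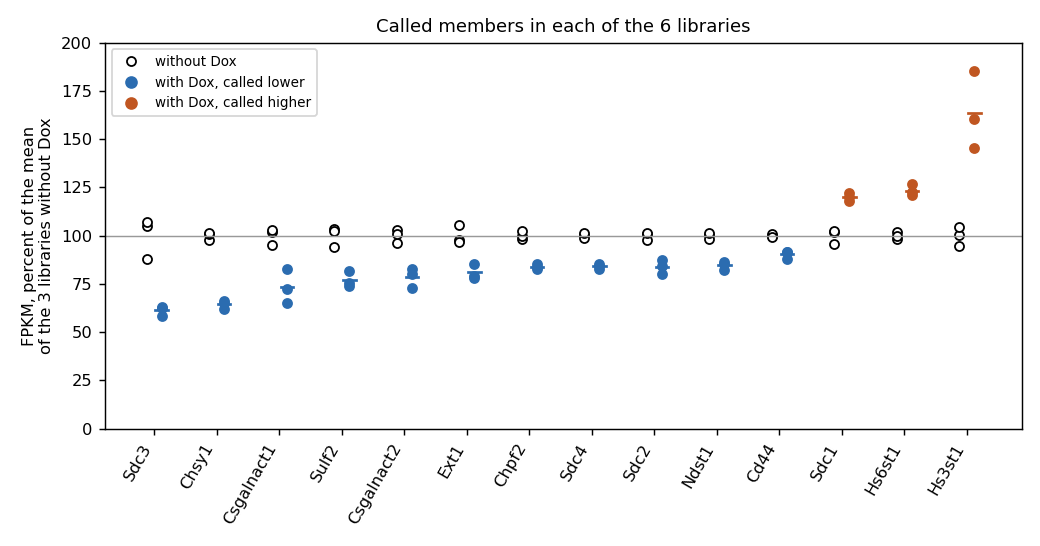
FPKM of the 14 called members in each library (vertical axis, as a percent of the mean of the 3 libraries without Dox), with genes on the horizontal axis ordered by fold change; open points are libraries without Dox, filled points libraries with Dox, and short bars the mean with Dox. In each of the 14 genes the filled points lie all below or all above the open points, and the spread of Sdc3 without Dox and of Hs3st1 with Dox is the widest.

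Among the chondroitin sulfate enzymes 4 of 12 tested members were called lower, beside 7.97% of all genes tested. None was called higher and 8 were not called. All 12 log2 fold changes were below 0, from -0.63 to -0.04 with a median of -0.24. In 9 genes every library with Dox was below every library without, beside 17.6% of all genes with a value in every library. The members were selected because the process fell with Dox, so nothing is read from the size of these counts. The summed level was 346 to 359.8 FPKM without Dox and 309 to 309.8 FPKM with Dox. Without library 1 or without library 2 of the cells without Dox, 11 of the 12 were below 0.

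Csgalnact1 and Csgalnact2 add the N-acetylgalactosamine that commits the linker to chondroitin sulfate. Csgalnact2 (chromosome 6, 118107452 to 118139140, minus strand) was at 13.7, 14.7 and 14.4 FPKM without Dox, against 10.4, 11.8 and 11.4 FPKM with Dox. Csgalnact1 (chromosome 8, 68356781 to 68735146, minus strand) was at 6.83, 6.36 and 6.88 FPKM without Dox, against 5.53, 4.37 and 4.85 FPKM with Dox. In both genes the groups did not overlap, and the log2 fold changes were -0.35 (SE 0.0757) for Csgalnact2 and -0.44 (SE 0.119) for Csgalnact1. The call of Csgalnact1 was held in 4 of 15 alternative settings. It ended when library 1, 2 or 3 without Dox was left out (log2 fold changes -0.43, -0.48 and -0.42) and when library 2 or 3 with Dox was left out (-0.36 and -0.44). The call of Csgalnact2 was held in 11 of 15 settings and ended without library 2 or 3 of the cells without Dox (-0.32 and -0.34) and without library 1 or 3 of the cells with Dox (-0.30 and -0.36).

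The chain is extended by Chsy1, which acts together with Chpf, and by their relatives Chsy3 and Chpf2. Chsy1 (chromosome 7, 66109515 to 66173798, plus strand) was at 32.9, 33.98 and 34.1 FPKM without Dox, against 20.8, 22.2 and 21.99 FPKM with Dox. No other chondroitin sulfate enzyme had a larger change on this scale, with a log2 fold change of -0.63 (SE 0.0509), and Chsy1 fell by 35.6%. It was also the member with the most seed matches in its 3′ UTR, the pair of windows printed above within 1377 bases. Chpf was at 90.1, 86.5 and 81.7 FPKM without Dox, against 78.4, 81.3 and 79.7 FPKM with Dox. The Chpf groups were next to each other without overlap, and Chpf was not called, with a log2 fold change of -0.11. The ratio of Chsy1 to Chpf was 0.392 ± 0.0256 (SD, n = 3) without Dox, against 0.271 ± 0.00518 (SD, n = 3) with Dox. Chsy3 lay between 5.79 and 8.02 FPKM with overlapping groups.

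Chpf2 (chromosome 5, 24586741 to 24594556, plus strand) was at 52.1, 52.9 and 54.2 FPKM without Dox, against 45.2, 44.3 and 43.9 FPKM with Dox. The log2 fold change was -0.25 (SE 0.0403). This value is uncertain, because 44.1% of the exon bases of Chpf2 are overlapped by Smarcd3, a chromatin remodelling gene on the opposite strand, and whether the counting used the strand that the kit preserves is likewise not given. Smarcd3 was at 31.99, 34.8 and 35.2 FPKM without Dox, against 25.7, 27.6 and 24.96 FPKM with Dox, and it was called lower too (log2 fold change -0.38, SE 0.0633, limma adjusted p = 0.00917). If strand was not used, reads of Chpf2 and Smarcd3 cannot be told apart in the overlap.

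The chondroitin sulfotransferases and the epimerase Dse had no called member, beside 7.97% called lower and 7.06% higher of all genes tested. Chst7, one of the sulfotransferases for carbon 6, was at 27.4, 25.2 and 28.2 FPKM without Dox, against 24.7, 22.6 and 20.5 FPKM with Dox. Its groups did not overlap, and the log2 fold change was -0.26 with a 95% interval from -0.45 to -0.06. Chst12, a sulfotransferase for carbon 4, was at 48.2, 51.5 and 40.6 FPKM without Dox, against 45.6, 43.5 and 47.02 FPKM with Dox. The values of Chst12 with Dox lay inside the range without Dox, which was wide because library 3 was low. Dse, which makes dermatan sulfate by epimerisation, was at 37.8, 41.2 and 40.3 FPKM without Dox, against 38.4, 38.3 and 38.7 FPKM with Dox, and its log2 fold change of -0.05 had a 95% interval from -0.16 to 0.07. Chst3 (log2 fold change -0.55), Chst11 (-0.23) and Ust (-0.18) had groups that did not overlap and were not called, with ranges over all libraries of 1.45 to 2.55, 14.8 to 19.1 and 16.9 to 20.9997 FPKM. Chst14 and Chst15 did not pass the filter, Chst14 at 0.283 to 0.841 FPKM and Chst15 above 0 in 1 library only.

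Hyaluronan enters through its synthases, Has1 to Has3, and its receptor Cd44. Cd44 (chromosome 2, 102811141 to 102901665, minus strand) was at 217, 219.6 and 216 FPKM without Dox, against 191, 199.6 and 199 FPKM with Dox. Its groups did not overlap, and its log2 fold change of -0.15 (SE 0.0307) was the smallest among the called members. The call of Cd44 was held in 8 of 15 alternative settings. It ended without library 1, 2 or 3 of the cells without Dox (-0.15, -0.14 and -0.15) and without library 1 or 3 of the cells with Dox (-0.13 and -0.16). Of the synthases only Has2 passed the filter, at 0.998, 1.36 and 1.24 FPKM without Dox, against 1.72, 1.67 and 1.65 FPKM with Dox. All Has2 values with Dox were above those without, but it was not called, with a log2 fold change of 0.47 and a 95% interval from -0.12 to 1.05. Has3 lay between 0.615 and 1.22 FPKM, and Has1 was above 0 in 1 library only, at 0.0370 FPKM. FPKM of a gene does not separate its isoforms, and the splice forms of Cd44 were not analysed here.

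Of the 14 core protein genes 8 were tested. Of these, 3 were called lower and 1 higher, beside 7.97% and 7.06% of all genes tested, and 4 were not called. The called genes were the syndecans, transmembrane cores that carry mainly heparan sulfate and act as co-receptors for growth factors and integrins. Sdc4, Sdc3 and Sdc2 fell with Dox while Sdc1, the syndecan typical of epithelial cells, rose. The glypicans, which are attached to the membrane by a lipid anchor, and the secreted basement membrane core Hspg2, known as perlecan, were not called.

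Sdc4 (chromosome 2, 164424247 to 164443887, minus strand) was at 326, 321 and 329.7 FPKM without Dox, against 275, 278 and 269 FPKM with Dox. It had the highest level of the members, and its log2 fold change was -0.25 (SE 0.0274). Sdc3 (chromosome 4, 130792537 to 130826319, plus strand) was at 151, 154 and 126 FPKM without Dox, against 89.6, 84.03 and 90.4 FPKM with Dox. Library 3 without Dox was lower than the other two in Sdc3, but the groups were still far apart, and Sdc3 had the largest decrease of the members, with a log2 fold change of -0.70 (SE 0.0804) that ran from -0.80 to -0.65 over the alternative settings. An antisense gene, Gm26716, overlaps 6.93% of the exon bases of Sdc3, and whether strand was used in the counting is not given. Sdc2 (chromosome 15, 32920723 to 33034935, plus strand) was at 95.97, 92.8 and 96.1 FPKM without Dox, against 76.3, 82.8 and 79.8 FPKM with Dox. Its log2 fold change was -0.25 (SE 0.0427), and its 3′ UTR held the seed match printed above, whereas those of Sdc3 and Sdc4 held none. Sdc1 (chromosome 12, 8771323 to 8793715, plus strand) was at 157, 158 and 147 FPKM without Dox, against 185, 182 and 188 FPKM with Dox. All values with Dox were above all values without, and the log2 fold change was 0.27 (SE 0.0382).

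The 4 syndecans summed to 731, 726 and 699 FPKM without Dox and to 626, 627 and 628 FPKM with Dox, which was 12.7% lower in the mean (percent change -12.7). Sdc1 made up 21.4% ± 0.353 (SD, n = 3) of the sum without Dox, against 29.5% ± 0.456 (SD, n = 3) with Dox, and Sdc3 made up 20.001% ± 1.74 (SD, n = 3) and 14.03% ± 0.554 (SD, n = 3). The shares of Sdc1 and Sdc3 were thus next to each other without Dox and apart with Dox. The shares of Sdc4 (45.3% ± 1.61 and 43.7% ± 0.722, SD, n = 3) and of Sdc2 (13.2% ± 0.496 and 12.7% ± 0.504, SD, n = 3) differed by about 1 SD of the libraries without Dox.

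**Figure D3:**
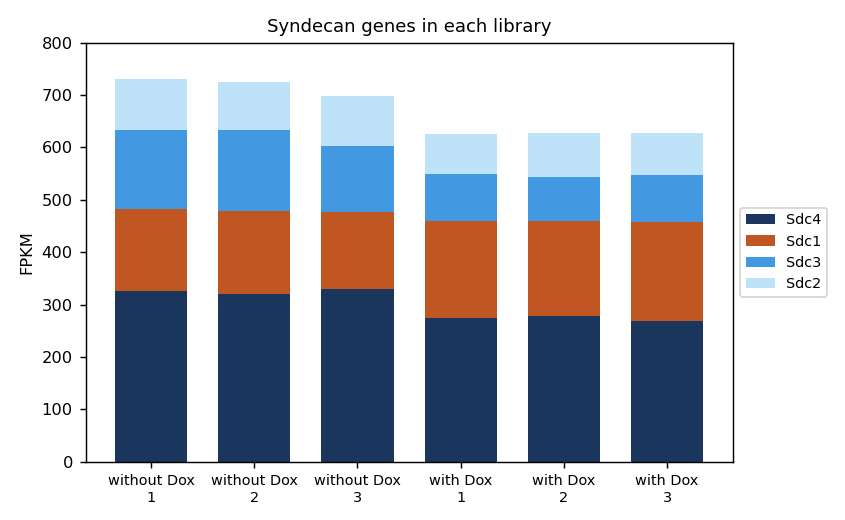
FPKM of Sdc4, Sdc1, Sdc3 and Sdc2 (stacked bars, vertical axis) in each of the 3 libraries without and the 3 libraries with Dox (horizontal axis). The bars with Dox reach 626 to 628 FPKM against 699 to 731 FPKM without Dox, and within them the Sdc1 segment is taller and the Sdc3 segment shorter.

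Gpc4 was at 193, 193 and 198 FPKM without Dox, against 185, 197 and 198 FPKM with Dox. Its log2 fold change was -0.01 with a 95% interval from -0.10 to 0.07, so a change larger than that was not seen in the most highly expressed glypican. Gpc1 was at 146, 135 and 135 FPKM without Dox, against 125, 134 and 131 FPKM with Dox, without overlap and without a call (log2 fold change -0.09, 95% interval from -0.20 to 0.02). Ankmy1 overlaps 18.9% of the exon bases of Gpc1 and was listed at 0 in every library. Gpc6 was at 34.96, 36.2 and 34.8 FPKM without Dox, against 36.1, 35.8 and 38.6 FPKM with Dox, with overlapping groups and a log2 fold change of 0.06. The 3 tested glypicans summed to 369 ± 4.88 FPKM (SD, n = 3) without Dox, against 360.1 ± 12.2 FPKM (SD, n = 3) with Dox. Hspg2 was at 77.2, 83.3 and 80.2 FPKM without Dox, against 73.2, 77.4 and 74.8 FPKM with Dox, and its groups overlapped at 77.2 and 77.4 FPKM. The other cores did not pass the filter. Gpc3 was listed at 0 in every library, and Gpc2 and Cspg4 did not pass 0.0496 FPKM. Cspg4 was higher with Dox without overlap, at 0 to 0.0225 FPKM without and 0.0349 to 0.0496 FPKM with Dox. The matrix proteoglycans Dcn, Bgn and Vcan, which are products of fibroblasts in many tissues, stayed between 0.0349 and 1.56 FPKM. The value of Gpc2 is uncertain, because Gm43720 overlaps 55.6% of its exon bases on the same strand and strand cannot separate their reads there.

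A sequence feature of the promoters was also described, since Zeb1 and Zeb2 bind E-boxes. The letters CAGGTG were searched for on either strand from 250 bases before to 50 bases after each RefSeq gene start on GRCm38.p6. Of the 37 tested members, 28 had a promoter in that table, and 3 of them (10.7%), Sulf2, Csgalnact2 and B3gat3, held the motif. Over all 27025 genes with a promoter the share was 22.6%. These were not filtered on expression as the members were, so the shares are of unlike sets. Sulf2 and Csgalnact2 were called lower with Dox and held the motif in 1 of their listed promoters and not in the other. B3gat3 was not called. Ext1, Ndst1, Csgalnact1 and Sdc2, also called lower, had no promoter listed. No promoter of Sdc1, Hs6st1 or Hs3st1, the members called higher, held these letters in that window.

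The steps around these genes were described with 90 other genes of the pathway, of which 48 passed the filter. They supply sugar nucleotides and sulfate, act elsewhere in chain synthesis, degrade the chains in lysosomes, turn over or bind hyaluronan, or serve as further cores. Of the 48, 12 were called lower and 1 higher with Dox, beside 7.97% and 7.06% of all genes tested, and the median log2 fold change was -0.07. The count of 12 fell to 7, 6 and 8 when library 1, 2 or 3 without Dox was left out. It fell to 8, 8 and 7 when library 1, 2 or 3 with Dox was left out. Over all genes tested, the count called lower fell as well, from 1026 to 696, 670 and 672, and to 668, 709 and 590, in the same order.

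In the supply of precursors 2 of 18 tested genes were called lower and 1 higher, beside 7.97% and 7.06% of all genes tested. Ugp2, which makes UDP-glucose, was at 59.4, 59.3 and 61.5 FPKM without Dox, against 50.01, 49.1 and 51.5 FPKM with Dox. Its log2 fold change was -0.26 (SE 0.0412, limma adjusted p = 0.0077). Slc35a2, the Golgi transporter of UDP-galactose, had a log2 fold change of -0.29 (SE 0.0775, limma adjusted p = 0.0486). The UDP-glucose dehydrogenase Ugdh, chosen after its values were seen because it makes the UDP-glucuronic acid used by heparan sulfate, chondroitin sulfate and hyaluronan, had means of 154 FPKM without and 151 FPKM with Dox and a log2 fold change of -0.03 (95% interval from -0.24 to 0.17).

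Of 5 further chain enzymes tested, 3 were called lower, beside 7.97% of all genes tested. Chst1 was at 77.3, 76.4 and 70.9 FPKM without Dox, against 48.3, 50.6 and 51.3 FPKM with Dox. Its log2 fold change was -0.58 (SE 0.0497, limma adjusted p = 0.000584). Chst2 was at 9.07, 8.99996 and 8.45 FPKM without Dox, against 5.999, 6.12 and 5.80 FPKM with Dox, with a log2 fold change of -0.56 (SE 0.0849, limma adjusted p = 0.00634). Both are sulfotransferases known for their action on keratan sulfate and related glycans and not on heparan or chondroitin sulfate. Pxylp1, a phosphatase that acts on the xylose of the linker, was at 20.4, 18.03 and 18.1 FPKM without Dox, against 13.1, 14.2 and 13.4 FPKM with Dox. Its log2 fold change was -0.47 (SE 0.0742, limma adjusted p = 0.00736).

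In lysosomal degradation 5 of 13 tested genes were called lower and none higher, beside 7.97% and 7.06% of all genes tested. The heparan sulfate degrading enzymes Naglu and Hgsnat had log2 fold changes of -0.27 (SE 0.0525, limma adjusted p = 0.0157) and -0.23 (SE 0.0559, limma adjusted p = 0.0362). Hexa, which encodes a lysosomal hexosaminidase subunit, was called at the border of the threshold (limma adjusted p = 0.0496) and lies outside the rule for named genes. None of the 6 tested hyaluronan turnover and binding genes was called, beside the same shares of all genes, and nothing is read from this count.

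Of 6 further cores tested, 2 were called lower, beside 7.97% of all genes tested. Nrp1, a receptor of semaphorins and VEGF that can carry a glycosaminoglycan chain, was at 18.8, 19.1 and 19.1 FPKM without Dox, against 16.3, 15.96 and 15.6 FPKM with Dox. Its log2 fold change was -0.25 (SE 0.055, limma adjusted p = 0.0264). Prelp, a leucine-rich repeat protein of the matrix that binds heparin, was at 1.52, 1.51 and 2.04 FPKM without Dox, against 0.433, 0.765 and 0.721 FPKM with Dox. Its log2 fold change was -1.29 (SE 0.346, limma adjusted p = 0.0481). An antisense gene, Gm15851, overlaps 9.68% of the exon bases of Prelp, with the same open question on strand. Without single libraries some calls of these other genes ended. Naglu lost its call without library 2 of the cells without Dox (log2 fold change -0.26), Nrp1 and Hgsnat without any 1 of the 6 libraries (-0.26 to -0.23 and -0.26 to -0.19), Slc35a2 without any 1 except library 1 with Dox (-0.30 to -0.22), Prelp in each of the 5 such fits that could test it (-1.42 to -1.07), and Hexa without any 1 except library 3 without Dox (-0.19 to -0.15). Without library 3 of the cells without Dox, Prelp was below the filter on low values and was not tested.

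**Figure D4:**
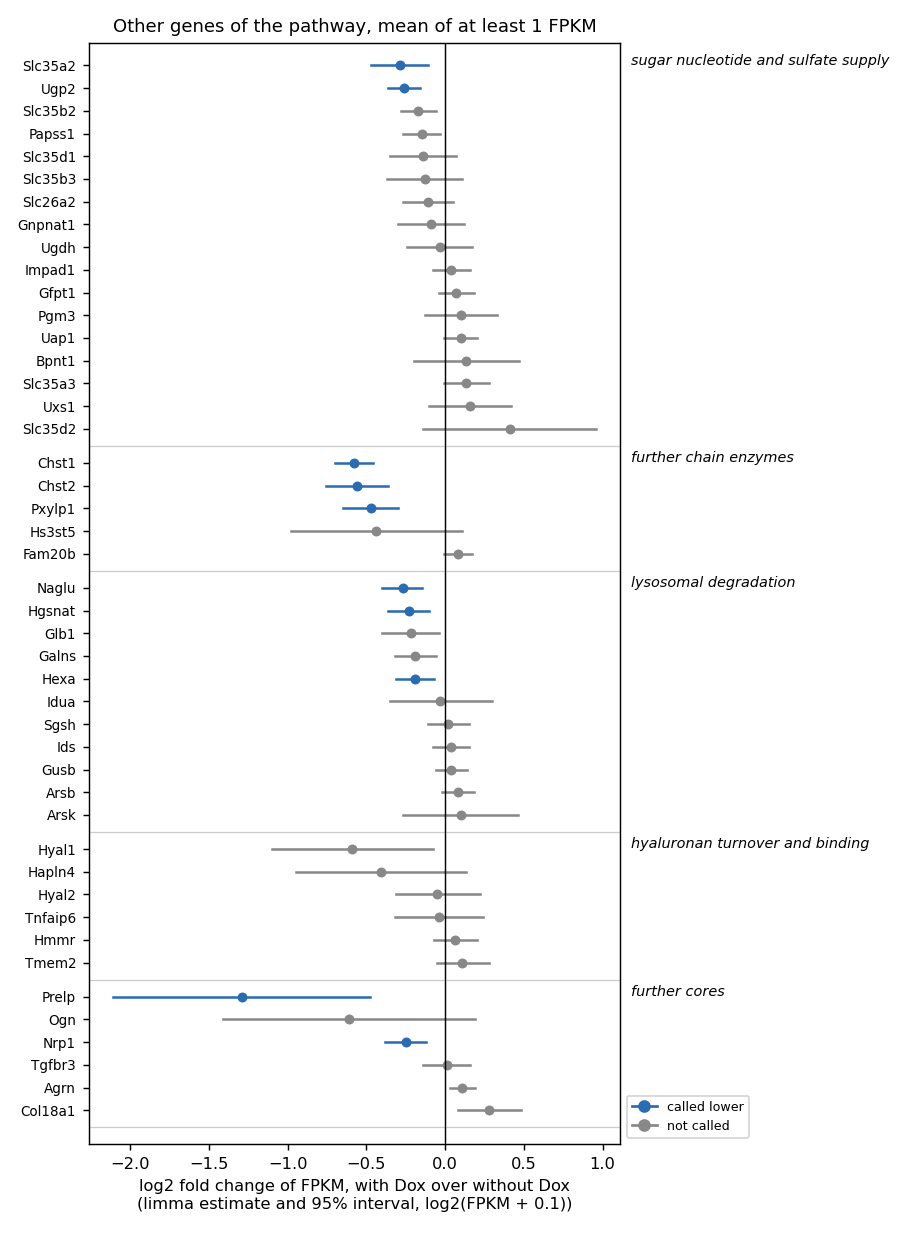
Log2 fold change of FPKM with Dox over without Dox (horizontal axis) for 45 of the 48 tested other genes of the pathway (vertical axis), grouped by step; points are limma estimates, lines are 95% intervals, and colour marks the call. The 10 genes called lower that are drawn lie in 4 of the 5 groups, and the interval of Prelp, at -1.29, is the widest of them.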

How the data were processed

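Libraries of mRNA from the Met-1 TripZ-200c clone were sequenced, 3 per group, as single 50 base reads. The authors mapped reads with gSNAP, estimated FPKM with Cufflinks and deposited 1 FPKM column per library, on GRCm38.p6 per the labels. The paper also names an FVB/NJ genome for the mapping. Sequences and positions given here are from GRCm38 only, so bases may differ in these cells. The deposited group means, fold changes, p-values and q-values were not used. Of 43611 rows, 63 repeating an identifier were dropped, and a placeholder in 6 cells of 4 genes, no member among them, was treated as missing. All 37 mitochondrial genes and 23035 genes in all were listed at 0, so a 0 may be a failed estimate. Relative depth, estimated from steps between low values, was 0.914 to 1.48 of the first library. The labels do not say that libraries came from separate cultures, so p-values measure the spread between these libraries. limma 3.58.1 in R 4.3.3 (lmFit, eBayes with trend) was run on log2(FPKM + 0.1) for the 12879 genes that averaged 1 FPKM or more, with group as the only term and Benjamini-Hochberg adjustment, and was tested on simulated data. Every member is accounted for, with the value in each library for called members and for members of at least 20 FPKM and with ranges for the rest. Also named are at most 12 called other genes by lowest adjusted p, Zeb1 and genes said to be chosen after their values were seen. The members and lists were chosen with earlier results of these data known. Shared sequence was checked with BLAST 2.17.0 (95% identity over at least 50 bases). Alternatives were pseudocounts of 1 and 0.01, no filter, a mean of at least 5 FPKM, quantile or median scaling, no trend, an unmoderated linear model on log2(FPKM + 1), a replicate block, a 1.5-fold minimum and the omission of each library. Some genes that the naming rule would name are not reported here.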

Additional observations from a re-analysis of the deposited data

How the results depend on the processing

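A minimum change of 1.5-fold left 2 members lower and 1 higher, and 1 other pathway gene lower and 1 higher. With a replicate block, 9 members were lower and 3 higher, and 7 other genes lower, where 11, 3 and 12 were found without it. Over all genes tested, 704 were lower and 633 higher with the block, where 1026 and 909 were found without it. Whether same-numbered libraries were paired is not known. Deviations of same-numbered libraries correlated at 0.0287, 0.0359 and -0.00759 across genes, beside -0.0511 to 0.0235 for libraries of different numbers. Such small values show little shared deviation, but they cannot tell whether the libraries were paired. Leaving out each library in turn gave 8 to 10 members lower, 3 higher, and 6 to 8 other genes lower. Over all genes tested, those fits gave 590 to 709 lower and 479 to 688 higher. The remaining alternatives (pseudocount, filter, scaling, trend and the unmoderated model) gave 10 to 11 members lower and 3 higher, and 9 to 13 other genes lower. Over all genes tested, these gave 692 to 1039 lower and 598 to 954 higher. The count of other genes called higher was 1 under every alternative run. Of the 14 called members 10 were called in every alternative fit. Besides Csgalnact1, Csgalnact2 and Cd44, Ext1 lost its call in the unmoderated model (adjusted p = 0.0539, against 0.00844 at the lowest), and no called member changed direction. Without a 1.5-fold minimum, of the 13 called other genes 7 were called in every alternative fit. Where a count moved, the cause was not tested. FPKM hides the reads behind each value, so the depth that limits the 15 members below the filter is unknown.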
